A study of Homo sapiens with 4 samples.

Results

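The barcodes described here came from the double-resistant cultures of the A375 melanoma cell line and carried more than 20% of their unique molecular identifiers (UMIs, each standing for 1 captured RNA molecule) on genes of the mitochondrial genome, the MT- genes. They were chosen for that share alone, and were set against the barcodes of the same library with at most 10%. These high-mitochondrial barcodes, called the high class below, numbered 1058 of the 30716 barcodes in the series. There were 478 of 9266 in RVC (5.16%, exact binomial 95% interval 4.72 to 5.63) and 580 of 10427 in RVT (5.56%, 5.13 to 6.02). The low class held 8477 and 9526 barcodes, and the 311 and 321 barcodes between the limits formed a middle class.

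A375 is a human cell line with a mutated BRAF kinase, and RVC cells had been made resistant to vemurafenib, a BRAF inhibitor, together with cobimetinib, while RVT cells had been made resistant to vemurafenib with trametinib. Cobimetinib and trametinib both inhibit MEK1/2, the kinases downstream of BRAF. Both cultures were held for 10 to 14 days at inhibitor concentrations below the IC50, were freed of the inhibitors 24 h before capture, and showed no more than 5% dead cells by trypan blue staining. Untreated cells (S) and cells resistant to vemurafenib alone (RV) made up the other libraries. Each condition was 1 droplet library, so the counting intervals below cover counting error only, the barcodes of a library are not replicates, and no difference between classes or cultures was tested; higher and lower describe sizes in these libraries.

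A cell holds RNA in compartments that can be lost separately. Long non-coding RNAs such as MALAT1 and NEAT1 stay in the nucleus, in nuclear speckles and paraspeckles, whereas the short and abundant messengers of ribosomal proteins lie free in the cytoplasm, messengers of secreted proteins are translated at the endoplasmic reticulum, and the mitochondrial genome is transcribed inside the organelle. A large mitochondrial share is widely used to mark barcodes of broken or dying cells whose cytoplasmic RNA has leaked away. Whether the barcodes described here held such cells was not measured.

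The high class held few UMIs. Outside the MT- genes, the median barcode held 554.5 UMIs in RVC (quartiles 436 and 693) against 3872 in the low class, and 425.5 in RVT (350 and 509.25) against 2721. The medians of the low class were thus 6.98-fold and 6.39-fold larger. The median number of MT- UMIs moved the other way and by less, from 142 to 199.5 in RVC and from 162 to 245 in RVT, which is 1.40-fold and 1.51-fold more in the high class. Because the mitochondrial share fixes the relation between these counts, they describe how the class was cut and are not a finding. The same limit applies to shallow barcodes. Fewer than 1000 UMIs outside the MT- genes were held by 94.1% of the RVC and 98.6% of the RVT high class, against 3.59% and 4.53% of the low class. The median mitochondrial share was 25.8% in RVC and 36.7% in RVT, and the highest was 56.5% and 77.8%.

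**Figure D1:**
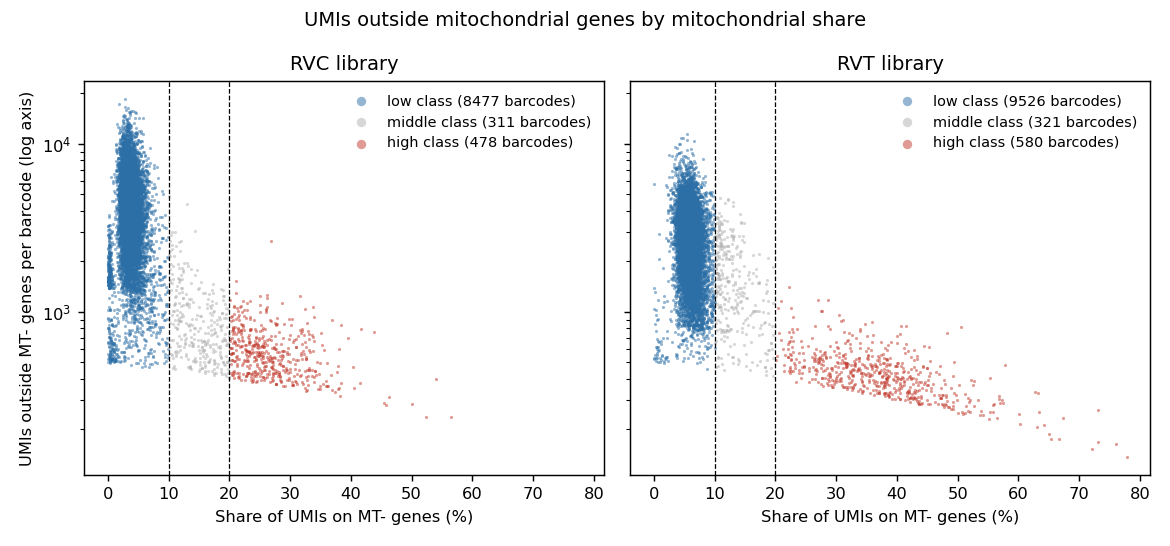
UMIs outside MT- genes per barcode (log axis) over the share of UMIs on MT- genes, for every barcode of RVC (left) and RVT (right), with dashed lines at 10% and 20%. The high class (red) lies low in both libraries, with a median of 554.5 UMIs in RVC and 425.5 in RVT, and the sloping lower edge is the lowest total of 500 UMIs.

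At the edges of the rule the counts changed little beside the gap between the classes. The 82 RVC barcodes with over 20% and up to 22% had a median of 669 UMIs outside the MT- genes, and the 59 with 18% to 20% had 672. In RVT the 10 barcodes just over the limit had a median of 578 and the 30 just under it 690. Near 10%, the barcodes just inside and just outside the low class had medians of 1100 and 1496.5 in RVC and of 1804 and 1821 in RVT.

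Fewer detected genes went with fewer UMIs. The median number of genes outside the MT- set was 335.5 against 1232 in RVC and 290 against 994 in RVT. When every barcode was thinned to 500 such UMIs, the order turned, with 304 genes against 289 in RVC and 345 against 280 in RVT. This thinning left out 180 and 425 shallower barcodes of the high class, and 12 and 3 of the low class. At equal depth, the remaining high-class barcodes spread their UMIs over more genes than the low class.

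S held 2 barcodes with over 20% and RV held 1, but their numbers cannot be set beside RVC and RVT. The lowest total per barcode was 2494 in S and 3615 in RV, against 500 in RVC and RVT, and nearly the whole high class of the double-resistant cultures lay below those values. RVC and RVT also shared 149 barcode sequences, of which 7 fell in the RVC and 6 in the RVT high class, and no count of genes moved by 1.5-fold without these. The labelled cell type was checked on markers. S100A6, vimentin (VIM) and the receptor kinase AXL were detected in both classes, while the pigment-cell genes TYR, MLANA, DCT and PMEL had 0 UMIs in the high class of both libraries and at most 9 in the low class. The melanocyte lineage factor SOX10 had 0 UMIs in both classes of RVC, and 9 in the high and 564 in the low class of RVT. MITF, the master regulator of pigment cells, had 4 and 301 UMIs in RVC and 24 and 1170 in RVT, and the secreted melanoma protein MIA 0 and 72, and 7 and 2955. Of 12 blood cell markers, 10 in RVC and 12 in RVT had 0 UMIs in the high class; the others were CD3D and FCER1G, with 1 UMI each. Of 8 fibroblast and endothelial markers, 4 and 5 were at 0; the collagen gene COL3A1 is described below.

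Levels are given as CPM, the UMIs of a gene per 1000000 UMIs outside the MT- genes, summed over the barcodes of a class, so the mitochondrial share itself does not enter them. A gene was counted where its mean level over the classes would give at least 20 UMIs at the depth of the high class. In RVC, 1615 genes were counted: 463 (28.7%) were at least 2-fold higher and 293 (18.1%) at least 2-fold lower in the high class. In RVT, 706 of 1703 (41.5%) were at least 2-fold higher and 245 (14.4%) lower. This filter favours the higher side, since 420 of the RVC and 615 of the RVT genes reached it only through their high-class level, and 331 and 520 of these were at least 2-fold higher. With genes counted by their low-class level alone, a choice added after the data were seen, the balance turned. In RVC 132 of 1280 (10.3%) were at least 2-fold higher and 338 (26.4%) lower, and in RVT 186 of 1193 (15.6%) and 303 (25.4%). This choice favours the lower side in turn. Only 1195 of the 1280 and 1088 of the 1193 genes passed the first filter, and the rest had to be lower. The splits also rest on the scale, since a level is a share of a total. With TMM scaling, which equalises the bulk of the genes, all ratios dropped by 0.96 (log2) in RVC and by 1.10 in RVT, and the counts became 177 higher and 745 lower in RVC and 241 and 654 in RVT. Leaving the cytosolic ribosomal protein genes out of the total gave 417 and 556 in RVC and 547 and 546 in RVT, and leaving out MALAT1 and NEAT1, which raised the ratios by 0.40 and 0.33, gave 835 and 121 and 1084 and 173. A gene with a ratio between 0 and the TMM shift is therefore higher on the first scale and lower under TMM, and directions below are read against the total of all RNA outside the mitochondria, and UMIs per barcode, which need no scale, are given for the main lists. By that measure, only 27 genes (1.67%) in RVC and 77 (4.52%) in RVT had at least as many UMIs per high-class barcode as per low-class barcode, and the mean barcode of the low class held 7.09-fold and 6.32-fold more UMIs in all.

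The nuclear long non-coding RNAs stood highest of the lists with counted members when set against the whole low class, led by MALAT1, a nuclear speckle RNA. MALAT1 made up 24.7% of the UMIs outside the MT- genes in the RVC high class against 2.64% in the low class, and 16.8% against 2.13% in RVT. The log2 ratios of its levels were 3.23 (95% counting interval 3.22 to 3.24) and 2.98 (2.96 to 2.99). Counted per barcode, MALAT1 was not lower: a high-class barcode held 148 MALAT1 UMIs on average against 112 in RVC, and 75.4 against 60.5 in RVT. NEAT1, the RNA scaffold of paraspeckles, had log2 ratios of 3.22 (3.17 to 3.26) and 2.91 (2.89 to 2.93). It stood at 8.41 against 6.40 UMIs per barcode in RVC and at 26.5 against 22.3 in RVT. TMM lowered but did not turn the ratio of the sum of the 8 listed long non-coding RNAs, from 3.22 to 2.26 in RVC and from 2.95 to 1.85 in RVT. Against the depth-matched low class described further on, it was 0.65 and 0.54, which was no longer the highest. That sum is nearly all MALAT1 and NEAT1. FTX and KCNQ1OT1, which act on genes near their own loci, had 3.17 and 2.82 in RVC on 28 and 40 high-class UMIs, and 2.93 and 2.89 in RVT. Both had low-class levels under the filter, which FTX did not pass at all in RVC. JPX, at 0.53 and 0.64, and NORAD, a listed member that acts mainly in the cytoplasm, at 0.62 and 0.74, fell below 0 under TMM in both libraries. The nuclear copies of mitochondrial genes, none of them counted, were at 2.17 (-3.19 to 4.76) in RVC on 1 high-class UMI and at 3.70 (2.58 to 4.65) in RVT on 10.

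In droplet libraries of this kind, oligo(dT) primers copy RNA from its poly(A) tail and can also start at runs of A inside a transcript. MALAT1 and NEAT1 are genes of chromosome 11, plus strand, at 65497688 to 65506516 and 65422774 to 65445540 in GRCh38. The longest A run of each annotated transcript is shown because run length is one of the features compared across genes further on; the capitals mark the run, and 20 bases are given on either side. The run lies at bases 8337 to 8349 of MALAT1-202 and at bases 18046 to 18067 of NEAT1-202. In the annotation, 359 and 4676 bases follow it. Where the mature RNAs end was not examined. The printed stretches, flanks included, are chr11:65506078-65506130 and chr11:65440823-65440884.
MALAT1: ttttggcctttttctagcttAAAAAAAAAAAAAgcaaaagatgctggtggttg
NEAT1: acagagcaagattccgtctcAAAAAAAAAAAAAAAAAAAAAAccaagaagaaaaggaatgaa
Of 33427 genes with an annotated transcript, 4026 (12.0%) hold a run at least as long as the 13 A of MALAT1 and 735 one as long as the 22 A of NEAT1. Among the 1615 genes counted in RVC there were 467 (28.9%) and 82 (5.08%). Which of these sites the primers used was not tested.

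MALAT1 was high in most barcodes of the class and not in a few. Over 10% of the UMIs outside the MT- genes were MALAT1 in 410 of the 478 RVC barcodes and in 488 of the 580 RVT barcodes. In the low class this held for 181 of 8477 and 41 of 9526. Most of those were shallow: among low-class barcodes of under 1000 UMIs it held for 137 of 304 (45.1%) and 39 of 432 (9.03%). The RVC high class ran from 0.194% to 51.5%, with a median of 24.5%, and the RVT high class from 0.575% to 38.4%, with a median of 16.3%. A minority of 14 RVC and 6 RVT barcodes carried less than 2% MALAT1 in spite of their mitochondrial share. Within the high class, barcodes with more MALAT1 had less ribosomal protein RNA (Spearman -0.76 over 478 RVC barcodes, -0.42 over 580 in RVT), where both are shares of the same total.

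Short and abundant cytoplasmic messengers made up the lists lowest in the high class. The cytosolic large-subunit ribosomal proteins were at 79091 CPM in the high class against 213403 in RVC and at 56677 against 223774 in RVT, and the small-subunit ones at 59853 against 172021 and at 46262 against 194876. A barcode of the low class held 906 large-subunit and 730 small-subunit UMIs in RVC, against 47.4 and 35.8 in the high class, which is 19.1-fold and 20.4-fold more. In RVT it held 635 and 553, against 25.4 and 20.8. Of the 81 ribosomal protein genes counted in each library, 80 were lower in both, against 763 of 1615 in RVC and 614 of 1703 in RVT over all counted genes. The exception was RPL7L1, a paralog of RPL7. With genes counted by the low class alone, 848 of 1280 genes in RVC and 719 of 1193 in RVT were lower. RPS13, a protein of the small subunit, was among the lowest genes, at 947 against 4201 CPM in RVC (log2 -2.15, -2.33 to -1.98) and 745 against 5789 in RVT (-2.96, -3.17 to -2.75). Ribosomal protein genes have many near-identical pseudogenes, and RPS13 overlaps PIK3C2A on the same strand, so reads of single members are uncertain.

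Other small soluble messengers were depleted with them. FTL, the light chain of the iron store ferritin, stood at 7182 against 26719.8 CPM in RVC and at 7500 against 38653 in RVT, with log2 ratios of -1.90 (-1.96 to -1.83) and -2.37 (-2.43 to -2.30). The heavy chain FTH1 had -1.86 and -1.79, and the metallothioneins MT2A and MT1X, which bind zinc and copper, had -1.36 and -1.53 in RVC. The summed iron, redox and metallothionein list was at -1.55 in RVC and -1.93 in RVT. FTL alone gave 26719.8 of its 36353 CPM in the low class of RVC and 38653 of 48473.5 in RVT. The median counted member was at -0.95 and -0.87. In each library 11 of 13 counted members were lower, where 47.2% and 36.1% of all counted genes were. Counted by the low class alone, 11 of 13 were lower too, against 66.25% and 60.3% of all genes. TMSB10, an actin-sequestering thymosin, had -1.76 (-1.88 to -1.64) and -1.92 (-2.13 to -1.72), and the cytoskeletal list of actin, thymosin, profilin and tubulin genes -0.98 and -0.94. Translation elongation and related factors were at -0.88 and -1.37, with EEF1A1 at -0.70 and -1.55, and the S100 and annexin list at -0.90 and -0.38. That list was divided: each of its counted S100 genes was lower in both libraries, while the annexins ANXA1 and ANXA2 were at 0.72 and 0.34 in RVC and at 0.90 and 1.07 in RVT, all of which were below 0 under TMM.

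As lists, the messengers of nuclear genes for mitochondrial proteins took a smaller share of the UMIs outside the MT- genes in the high class. The nuclear-encoded OXPHOS subunits, parts of the respiratory chain, were at 20457 against 42141 CPM in RVC (log2 -1.04, -1.08 to -1.01) and at 17689 against 38779 in RVT (-1.13, -1.17 to -1.09). Of 46 counted members 41 were lower in RVC, and 38 of 41 in RVT; 19 and 16 were at least 2-fold lower. Over all counted genes, 47.2% and 36.1% were lower, and 18.1% and 14.4% at least 2-fold lower. By the low class alone, 42 of 47 members in RVC and 43 of 46 in RVT were lower, against 66.25% and 60.3% of all genes. At least 2-fold lower were 20 and 19 of them, against 26.4% and 25.4% of all genes. A low-class barcode held 14.6-fold and 13.9-fold more UMIs of the OXPHOS list, and 7.09-fold and 6.32-fold more UMIs outside the MT- genes in all. The MT- messengers, which encode subunits of the same complexes, were in excess in the high class by construction. A contrast between the nuclear and the MT- messengers was thus partly fixed by the rule. ATP5F1E had -1.31 and -1.80 and COX7C -1.03 and -1.36, whereas the larger subunits ATP5F1A and UQCRC2 were at 0.54 and 0.98 in RVC and at 0.48 and 0.49 in RVT, where under TMM both fell below 0 in RVT and ATP5F1A in RVC. The mitochondrial ribosomal proteins were at -0.71 and -0.61, and the list of mitochondrial chaperones, import and matrix genes at -0.53 and -0.84. In that list TOMM7, a small subunit of the outer membrane import pore, was at -1.35 and -1.83, and the matrix chaperone HSPD1 at 1.01 (0.83 to 1.18) and 0.30 (-0.07 to 0.64), though at 0.25 and 0.24 at matched depth.

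**Figure D2:**
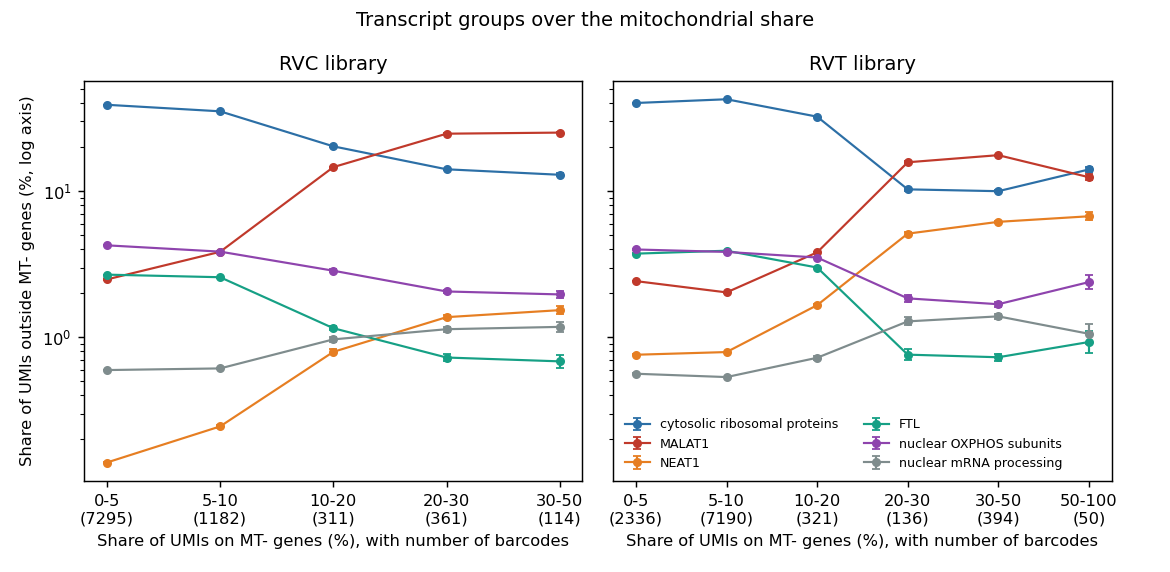
Share of UMIs outside MT- genes (log axis, percent) taken by each gene or list in barcodes of all depths grouped by mitochondrial share, for RVC (left) and RVT (right). The number of barcodes is in brackets, bars are 95% counting intervals, and 3 RVC barcodes above 50% are left out. MALAT1 (red) and NEAT1 (orange) lie higher and cytosolic ribosomal proteins (blue) and FTL (green) lower at large shares, with the main change between 5-10% and 20-30%; from 20-30% to 30-50% the shares change little.

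With all depths pooled, the values moved most between a few neighbouring ranges of the mitochondrial share. In RVC, MALAT1 took 2.49% at up to 5%, 3.84% at 5% to 10%, 14.6% at 10% to 20%, 24.7% at 20% to 30% and 25.1% at 30% to 50%. Ribosomal protein genes went from 39.0% over 35.2% and 20.2% to 14.1% and 12.9%. In RVC barcodes of under 1000 UMIs the same ranges gave 20.9%, 10.6%, 19.6%, 24.7% and 24.9% MALAT1. Ribosomal protein genes took 23.4%, 24.9%, 17.6%, 14.3% and 13.2% of them. RVT moved at a larger share, and its low class also had a larger median share, 5.75% against 3.56% in RVC. The RVT middle class was deeper too, with a median of 1465 UMIs outside the MT- genes against 790. In RVT, MALAT1 was still at 3.81% in barcodes with 10% to 20%, then 15.8% and 17.6%. Ribosomal protein genes were at 32.3% there, then 10.3% and 9.99%. The middle class was thus intermediate in RVC and nearer to the low class in RVT, where NEAT1 took 1.66% of it, against 0.793% at 5% to 10%. Its 91 RVT barcodes of under 1000 UMIs had 7.02% MALAT1, 2.77% NEAT1 and 21.3% ribosomal protein RNA. Past 50% MALAT1 and ribosomal protein RNA moved back, to 12.5% and 14.1% in the 50 RVT barcodes there and to 1.03% and 26.1% in the 3 RVC barcodes. NEAT1 did not turn in RVT, where it went from 5.12% at 20% to 30% over 6.16% to 6.73%.

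The lower depth of the high class went with part of these differences. Among low-class barcodes of under 1000 UMIs, MALAT1 was already high in those with almost no mitochondrial RNA: its median share was 31.3% in 122 RVC and 35.7% in 35 RVT barcodes with at most 2% on MT- genes. It was 5.06% in the other 182 and 2.43% in the other 397. These shallow barcodes, rich in MALAT1 and poor in MT- RNA, make up part of any low class matched on depth. When the low class was weighted to the depth of the high class, over 338 high and 703 low barcodes in RVC and 147 and 429 in RVT, the log2 ratio of MALAT1 was 0.63 and 0.40 and that of NEAT1 1.22 and 1.06. Among the depleted genes and lists, FTL was at -1.37 and -2.04, the large ribosomal subunit at -0.81 and -1.38, and the OXPHOS subunits at -0.77 and -0.80. Not every depleted gene stayed below 0, as CDKN1A in RVT, described below, was at 0.43. Other lists moved unevenly, with translation factors at -0.42 and -0.70, EEF1A1 at -0.19 and -0.76, glycolysis enzymes at -0.27 and -0.24, GAPDH at -0.40 and -0.53 the S100 and annexin list at -0.47 and -0.01, endoplasmic reticulum chaperones at -0.47 and -0.39, and proteasome subunits at -0.35 and 0.04. Which class of shallow barcode is the apt comparison was not tested, and the share of each barcode's UMIs that came from RNA free in the suspension was not tested either.

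Genes of the nuclear mRNA processing list, which splice and package transcripts, were higher in the high class on the scale of all RNA. Their summed level was 11440 against 5987 CPM in RVC (log2 0.93, 0.88 to 0.98) and 13426 against 5422 in RVT (1.31, 1.26 to 1.36), with TMM it was -0.03 in RVC and 0.21 in RVT, and at matched depth 0.47 and 0.66. Of 28 counted members, 24 in RVC and 25 in RVT were higher, 13 and 19 of them at least 2-fold, against 52.8% and 63.9% higher and 28.7% and 41.5% at least 2-fold higher over all counted genes. Counted by the low class alone, 9 of 24 members in RVC and 14 of 22 in RVT were at least 2-fold higher, against 10.3% and 15.6%. SON, a speckle protein, had 2.62 and 2.48, PNISR 2.38 and 2.88, and the splicing factor SF3B1 2.37 and 2.55. HNRNPA1, an abundant member, was lower at -0.52 (-0.75 to -0.30) and -1.17 (-1.41 to -0.94), and at -0.04 and -0.83 at matched depth. Per barcode the list was depleted less than the whole, 3.71-fold in RVC and 2.55-fold in RVT.

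Among single genes, those most retained in both libraries beside MALAT1 and NEAT1 were GABPB1-AS1, ANKRD30A, RBM6, NKTR, WSB1, POLR2J3, ZMYM2, N4BP2L2, DST and DYNC2H1. Of these 12 genes, 9 in RVC and 7 in RVT had a low-class level under the minimum of 69.9 and 76.8 CPM, so they were counted only through the high class and had to be higher there to be named. The antisense RNA GABPB1-AS1 had log2 ratios of 3.08 (2.84 to 3.31) and 2.93 (2.75 to 3.10), and NKTR, a cyclophilin with an arginine and serine rich tail, 3.23 (2.89 to 3.55) and 2.97 (2.65 to 3.27). The zinc finger protein gene ZMYM2 had 3.26 and 2.87, and DYNC2H1, the motor chain of ciliary transport, 3.07 and 2.90. Each of these genes stood between 0.93-fold and 2.53-fold of its low-class count per barcode, where the mean barcode as a whole held 7.09-fold or 6.32-fold less. POLR2J3 and ANKRD30A have near-identical copies, and RBM6 overlaps RBM5 on the same strand. At matched depth these ratios were smaller too, as with NKTR at 0.92 and 0.87 and ANKRD30A at 0.59 and 0.77, with WSB1, a ubiquitin ligase subunit, at 1.49 and 2.31 from 3.03 and 3.23, with DST at 1.51 and 2.16, and with RBM6 at 0.54 and 2.82.

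Secreted and matrix proteins were higher as a list, at 0.58 (0.52 to 0.64) in RVC and 0.99 (0.94 to 1.04) in RVT, though under TMM at -0.38 and -0.11, and a low-class barcode held 4.74-fold and 3.18-fold more of their UMIs. At matched depth they were at 0.35 and 0.96, and the members differed widely. In RVT, THBS1 alone gave 1138 of the list's 2926 high-class UMIs, against 18484 of its 152987 low-class UMIs. The RVT value of the list thus rests in part on that gene. The laminin chains LAMB1 and LAMC1, long proteins of the basement membrane, had 2.62 and 2.43 in RVC and 2.86 and 2.25 in RVT, and fibronectin (FN1) 1.62 and 2.14. LAMB1 in both libraries, LAMC1 in RVC and FN1 in RVT were counted only through their high-class level. By the low class alone, 2 of 11 members in RVC (18.2%) and 4 of 16 in RVT (25%) were at least 2-fold higher. Over all genes so counted the shares were 10.3% and 15.6%. The list medians were 0.55 and 0.14, against -0.47 and -0.32 over all genes. TIMP1, a small inhibitor of matrix proteases, was lower, at -0.70 and -0.58. The collagen-binding protein SPARC was at -0.48 (-1.05 to 0.03) in RVC, on 30 high-class UMIs, and at -0.88 (-1.09 to -0.67) in RVT. COL3A1 was at 720 against 122 CPM in RVC (2.56, 2.35 to 2.76) and at 69.1 against 7.84 in RVT (3.14, 2.36 to 3.84), with 18 UMIs behind the last high-class value. At matched depth it was at 2.08 in RVC, and in RVT only 6 high-class and 4 low-class UMIs were left. COL3A1 gave 206 of the 219 UMIs on the fibroblast and endothelial markers in the RVC high class and 18 of 28 in RVT, and these markers together stood at 765 against 167 CPM and at 108 against 42.3; their source was not tested. The complement component C3 was at 1075 against 135 CPM in RVT, 7.98-fold more, and at 119 against 26.2 in RVC, a log2 ratio of 2.18 (1.64 to 2.67).

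Surface and lysosome membrane proteins were at 0.25 and 0.51 as a list, and at -0.71 and -0.60 under TMM, with 5.97-fold and 4.45-fold more UMIs per low-class barcode. By the low class alone, 5 of 8 members in RVC and 6 of 9 in RVT were above 0, against 33.8% and 39.7% of all genes. The list medians were then 0.32 and 0.76, against -0.47 and -0.32 over all genes. The integrins ITGA3 and ITGB1 were at 1.99 and 1.72 in RVC and at 1.93 and 0.83 in RVT, and the small tetraspanin CD63 was at -0.76 and -0.68. The endoplasmic reticulum chaperones and translocon had -0.59 and -0.40. They too ran from OST4, a very short subunit of the oligosaccharyl transferase, at -1.85 and -1.99, to the chaperone HSP90B1, at 1.10 and 1.25. Glycolysis enzymes were at -0.64 and -0.69, with GAPDH at -1.10 and -1.46.

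Most stress and cell cycle lists were above 0 against the total of all RNA, and most of them fell below 0 under TMM. The heat shock response had 0.53 and 0.77, and -0.43 and -0.33 under TMM, led by the cytosolic chaperone HSP90AA1 at 1.12 (1.01 to 1.23) and 1.73 (1.58 to 1.88); HSPB1, a small heat shock protein, was at -1.41 in RVC. The integrated stress response was near its counting limits, with 150 and 195 UMIs in the high class and 0.74 and 0.38 as ratios, and p53 targets and apoptosis genes had 0.60 in both, with only 5 and 3 of 31 members counted; under TMM these were -0.22, -0.72, -0.36 and -0.50. CDKN1A, a p53 target that halts the cell cycle, was at 0.00 in RVC and at -1.26 (-2.17 to -0.48) in RVT on 13 high-class UMIs, but at 1.18 and 0.43 at matched depth, on 34 and 6 high-class UMIs. XIAP, an inhibitor of caspases at 1.54 and 1.29, was counted only through its high-class level. By the low class alone, none of the 2 RVC members and not the 1 RVT member of the p53 list was above 0. Of all genes so counted, 33.8% and 39.7% were. Immediate-early genes were at -0.07 (-0.26 to 0.12) and -0.33 (-0.54 to -0.13), and EGR1, a short-lived transcription factor messenger, at -1.28 (-2.23 to -0.47) and -3.02 (-4.89 to -1.66). G2/M genes had 0.68 and 1.22, and G1/S and S-phase genes 0.65 and 1.25, turning to -0.28 and -0.31 in RVC under TMM while keeping 0.12 and 0.14 in RVT. Few members were counted: 21 and 11 of 52 G2/M genes, and 4 and 1 of 41 G1/S and S-phase genes. By the low class alone, 6 of 19 G2/M members in RVC and 1 of 5 in RVT were at least 2-fold higher, against 10.3% and 15.6% of all genes. Within the G2/M list, CENPF, a very large kinetochore protein, was at 2.09 and 2.30, and the small CDK subunit CKS1B at -1.20 and -1.12. Proteasome subunits, at -0.21 and 0.01, and nucleolar genes, at -0.25 and -0.45, were near the whole, and in RVC both turned above 0, to 0.18 and 0.14, with MALAT1 and NEAT1 left out of the total. Histone genes had -1.22 and -0.64.

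**Figure D3:**
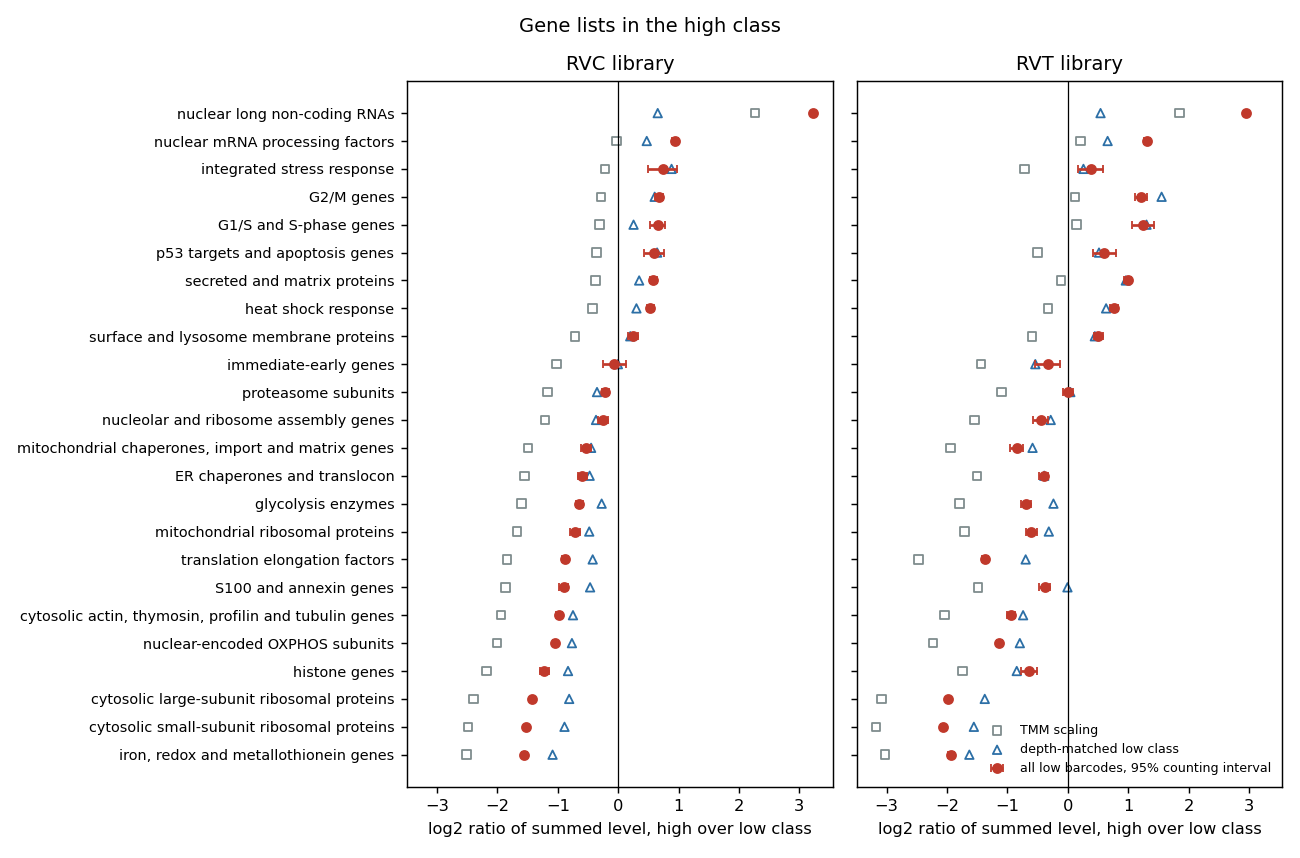
Log2 ratio of each list's summed level in the high over the low class (red, with 95% counting interval), with TMM scaling (grey squares) and against the depth-matched low class (blue triangles), for RVC (left) and RVT (right). Nuclear long non-coding RNAs stay above 0 and ribosomal, OXPHOS and iron genes below 0 on each scale, while secreted, heat shock and surface genes lie above 0 on the first scale and below 0 under TMM in both libraries.

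Across genes, the ratio went with the length of the exons. Among protein-coding genes without the ribosomal proteins, ranked by exonic length into 4 groups of about equal size, the median log2 ratio in RVC was -0.81 in the group with the shortest exons (up to 2897 bases), then -0.06, 0.52 and 1.56 in the group with the longest (from 8211 bases). In RVT the medians were -0.66, 0.40, 1.13 and 1.89. In the longest group 70.8% of 377 RVC genes and 86.1% of 396 RVT genes were at least 2-fold higher, and in the shortest 1.85% of 379 and 5.30% of 396. Spearman correlations across genes, which are not independent replicates and share libraries and depth, were 0.68 over 1506 genes and 0.71 over 1584 for exonic length, 0.61 and 0.63 for the number of introns, 0.56 and 0.56 for the span of the gene, 0.44 and 0.44 for the longest A run, and -0.16 and -0.20 for GC content. Length, introns and A runs go together in these genes and were not separated. Genes counted by the low class alone are not selected on the high class, though that filter favours the lower side. Over these genes the medians from shortest to longest were -0.96, -0.57, -0.04 and 0.48 in RVC and -0.90, -0.45, 0.10 and 0.94 in RVT. In the longest group 28.8% of 295 and 48.7% of 273 genes were at least 2-fold higher. The correlations with exonic length were 0.57 over 1178 and 0.64 over 1092 genes. On the same genes the correlations were 0.54 and 0.54 for the number of introns and 0.44 and 0.48 for the span. For the longest A run they were 0.39 and 0.45, and for GC content -0.25 and -0.26. As exonic length is the union over all annotated transcripts, it is longer than most messengers. By gene type, long intergenic RNAs took 27.1% of UMIs in the RVC high class against 3.37% in the low class and 24.2% against 3.50% in RVT, but without MALAT1 and NEAT1 only 1.01% against 0.578% and 1.51% against 0.581%.

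The composition of the mitochondrial RNA, which the rule did not use, was largely kept. Cytochrome oxidase messengers (complex IV) made up 58.1% of MT- UMIs in the high class and 57.0% in the low class of RVC, and 58.9% and 57.8% in RVT. The NADH dehydrogenase genes (complex I) went from 27.0% to 24.8% and from 29.2% to 26.0%. MT-ND1 was the main mover among the abundant messengers, at 3.46% against 6.67% in RVC (log2 of the shares -0.95) and 5.23% against 9.51% in RVT (-0.86). It held fewer UMIs per barcode in the high than in the low class, 7.60 against 10.6 in RVC and 13.7 against 16.5 in RVT, although total MT- UMIs were in excess there. MT-ND6, the only messenger copied from the light strand, moved the other way, to 1.27% from 0.533% in RVC (1.25, 1.16 to 1.33) and to 0.349% from 0.156% in RVT (1.16, 1.03 to 1.30). MT-ND5 had -0.52 and -0.40 and MT-ND3 0.36 and 0.27, and MT-CO1, MT-CO2, MT-CO3, MT-CYB, MT-ATP6, MT-ND2 and MT-ND4 lay between -0.20 and 0.29 in both libraries. MT-ND4L was at -0.37 and -0.31, and MT-ATP8 rested on 16 and 5 high-class UMIs. A MT-ND6 read and a read from the antisense strand of its neighbours are told apart only where counting used strand, which is not given in the sources used here.

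**Figure D4:**
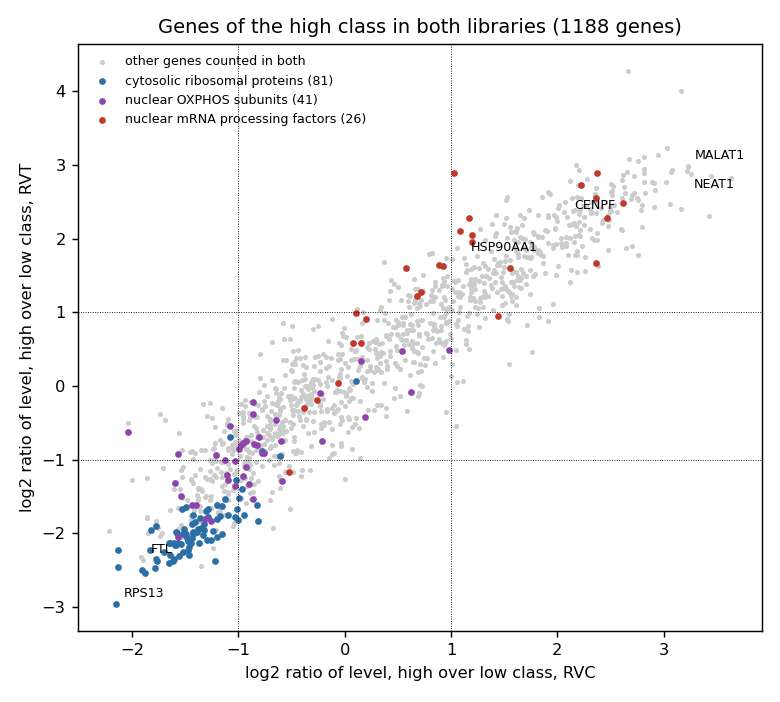
Log2 ratio of level in the high over the low class in RVC (x axis) and RVT (y axis) for the 1188 genes counted in both libraries, with dotted lines at 2-fold. The genes lie along the diagonal, with ribosomal protein genes (blue) at the lower end and MALAT1 and NEAT1 at the upper, and none is 2-fold higher in one library and 2-fold lower in the other.

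Both libraries gave like values. Of 1188 genes counted in each, 329 (27.7%) were at least 2-fold higher in both and 176 (14.8%) at least 2-fold lower in both. The shared 329 were 91.9% of the 358 higher in RVC and 85% of the 387 higher in RVT, and the shared 176 were 77.9% of the 226 lower in each. No gene was 2-fold higher in one and 2-fold lower in the other. The ratios correlated with Pearson r = 0.94 and Spearman rho = 0.95 across genes, which share the same chemistry, annotation and rule. Part of this likeness was fixed by the filter. Genes counted only through their high-class level, 420 in RVC and 615 in RVT, had to be higher in the high class. How many of the 1188 genes were of this kind was not counted. RVT ratios were the more extreme for ribosomal protein genes, as in RPS12 at -1.60 and -2.34 and RPL10A at -1.47 and -2.29.

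The high class also carried the profile of its own culture. The choice to compare this was made after the data were seen. Among 1185 genes counted for it, 49 (4.14%) were at least 4-fold higher in RVC than in RVT in the low class; all 49 were higher in RVC in the high class too, and 37 (75.5%) by at least 4-fold, where 4.22% of all genes were. Of the 35 (2.95%) at least 4-fold higher in RVT, all 35 were higher there in the high class and 31 (88.6%) by at least 4-fold, against 3.29% of all genes. UTS2, the neuropeptide urotensin 2, was at 8060 CPM in RVC and 1.78 in RVT in the low class, and at 4461 in RVC with 0 UMIs in RVT in the high class. The interstitial collagenase MMP1 was at 1192 and 1.85 in the low class and at 2145 and 0 UMIs in the high class, and the cytokine CXCL8 at 1043 and 7.36, and 933 and 7.68. In the other direction, the cancer-testis gene SPANXB1 was at 0.222 in RVC and 1968 in RVT in the low class and at 0 UMIs and 872 in the high class, and the matrix protein THBS1 at 10.8 and 684, and 41.9 and 4370. Over the 1171 genes with a UMI in each class of both libraries the log2 differences between cultures correlated with Pearson r = 0.90 and Spearman rho = 0.84. Each library has its own free RNA, whose part in these values was not tested.

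**Figure D5:**
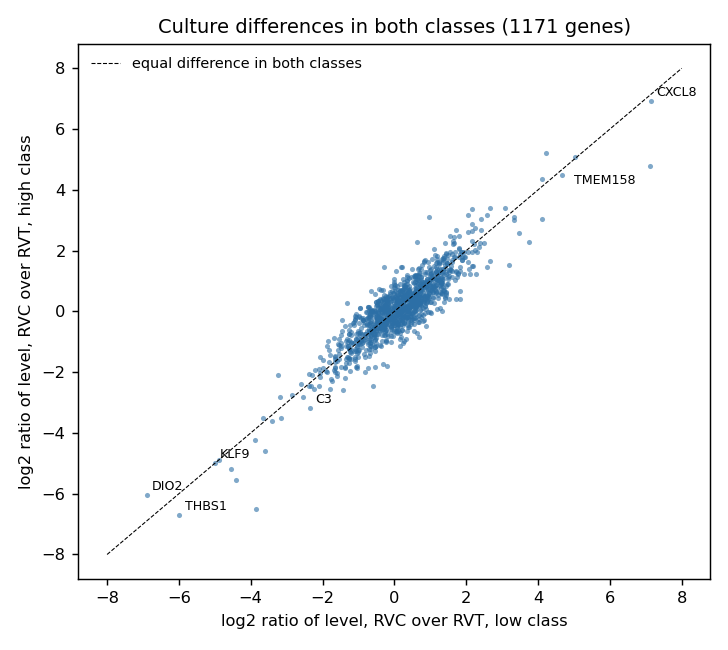
Log2 ratio of level in RVC over RVT in the low class (x axis) and in the high class (y axis) for 1171 genes with a UMI in each class of both libraries; the dashed line marks equal differences. The genes lie along the line, from DIO2 and THBS1, higher in RVT in both classes, to CXCL8 and TMEM158, higher in RVC in both.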

How the data were processed

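The labels credit the deposited gene-by-barcode count tables (whole UMI counts, not normalized, 1 per library) to bcl2fastq 2.20.0.422 and Cell Ranger on GRCh38, as listed in the submitters' processing notes; the filter on barcodes before deposit is not given in the sources used here, and the lowest total of 500 UMIs in RVC and RVT was read from the tables. The study removed dead and doublet cells later; here every deposited barcode was used, with no doublet caller, and the members and gene lists were chosen with earlier results of these data known. Counts were summed per class and divided by the class total outside the 13 MT- genes, in CPM. Ratios carry exact conditional binomial 95% intervals, tried on simulated class sums. Those sums held counting error only, which the intervals assume, and no differences between barcodes. With 1 library per condition there was no test. A gene with 0 UMIs in the high class allows up to 3 UMIs, which is 10.5 CPM in RVC and 11.5 in RVT. Named genes were the 12 highest and 12 lowest in both libraries by the interval bound nearest to 1, 4 each way per library, the 3 with most UMIs per list and the MT- genes; further list members and culture genes were named after their values were seen. GENCODE 29 gave gene features for 33456 of 33538 IDs. Tools were Python 3.11.15, numpy 2.4.6, scipy 1.17.1, pandas 2.3.3, matplotlib 3.10.9, R 4.3.3 and edgeR 4.0.16 (TMM only). Alternatives changed the class limits, depth, weighting, scale, filter, fold and barcode set.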

Additional observations from a re-analysis of the deposited data

How the results depend on the processing

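No paired analysis was possible because each condition had 1 library and no result came from a test. The counts of genes at least 2-fold higher and lower, 463 and 293 in RVC and 706 and 245 in RVT, depended on the filter, the scale and the classes. The least level to be counted follows the depth of the high class, so the first 2 changes also cut the genes counted, from 1615 and 1703 to 335 and 1111, and to 316 and 133. A high class over 30% (117 barcodes in RVC) gave 40 and 168 in RVC and 414 higher in RVT; barcodes with at least 500 genes (56 and 30 high barcodes) gave 39 and 143, and 11 and 90; 1 UMI in each class gave 5623 and 906, and 6348 and 827; 100 UMIs gave 32 and 148, and 39 and 135; a 1.5-fold limit gave 498 lower in RVC and 393 in RVT. Genes counted by the low class alone, also added later, gave 132 higher in RVC and 186 in RVT. The share higher among those past 2-fold in RVC went from 61.2% to 17.8% with 100 UMIs and to 28.1% by the low class alone. Against the depth-matched low class the counts were 224 and 123, and 98 and 131. Against low barcodes under 1000 UMIs, added after seeing the data, they were 300 and 121 in RVC and 623 and 259 in RVT. There, 7 RVC and 0 RVT genes changed sign, among those at least 2-fold apart in the main comparison and still counted. On other scales TMM gave 177 and 745, and 241 and 654, with 23 of 24 lists lower in RVC (cell type markers and nuclear copies of mitochondrial genes not included); a total without ribosomal protein genes gave 556 lower in RVC and 546 in RVT; one without MALAT1 and NEAT1, also added later, gave 835 and 121 in RVC and 1084 higher in RVT. A low class of at most 5% kept 2336 RVT barcodes, and thinned low barcodes had 289 and 280 genes. Of these lists above 0, 8 of 9 in RVC and 6 of 10 in RVT were below 0 under TMM. Of all genes at least 2-fold apart, 38 in RVT and 0 in RVC changed sign under TMM. At matched depth 7 in RVT and 6 in RVC did so, among those still counted. Only 535 genes in RVT and 1331 in RVC were counted there, so the other genes were not assessed. Among the named genes, at matched depth PRH1 (-0.57), AC058791.1 (-0.18), KANSL1 (-0.14), DDIT3 (-0.40) and CDKN1A (0.43) changed sign in RVT. Under TMM the median heat shock member (-0.025), ANXA2 (-0.029) and DDIT3 (-0.092) did so in RVT. The cause was not tested. Leaving out shared barcodes moved none of 313 values beyond its counting interval, and leaving out the 8% of barcodes with most UMIs moved 10.

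The depth of the high class, 286266 and 260387 UMIs outside the MT- genes, limits the comparison to abundant genes. Longer exons, more introns and longer A runs occur together, depth and class move together, and the droplets without cells that would measure free RNA were not used here.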
